A study of Homo sapiens with 8 samples.

Results

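Attachment of A549 cells to their matrix and to each other was followed through 45 genes, chosen by name out of 60624 genes counted. They comprised 11 integrin subunits, 9 focal adhesion proteins, 6 laminin chains, 7 other matrix proteins, 8 epithelial junction and keratin genes, and 4 mesenchymal genes and transcription factors of the epithelial-mesenchymal transition (EMT). Their Ensembl identifiers were matched to symbols with GENCODE 44 on GRCh38. Counts sufficed to test 43 of the 45. The untested genes were SPARC, a matricellular glycoprotein that reached at most 0.0981 CPM (counts per 1000000 on genes) in any library, and SNAI2, which encodes the EMT transcription factor Slug and reached at most 0.157 CPM.

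A549 is a cell line established from a human lung adenocarcinoma, and its RNA was sequenced untreated, after indisulam, after SPHINX31 and after both agents together (the combination). Indisulam brings the splicing factor RBM39 to the DCAF15 ubiquitin ligase for degradation, and SPHINX31 inhibits SRPK1, a kinase of SR splicing factors. Doses were 0.5 μM indisulam and 5 μM SPHINX31 for 24 h in the methods, whereas the labels of all 8 libraries, the untreated ones included, give 2 μM indisulam and 18 h. Each group had 2 technical replicates, so p-values below measure only the spread between libraries and not that between separate treatments.

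Between 51727369 and 63186989 reads per library fell on genes, and 25 of the 45 genes averaged over 100 CPM. Replicate libraries differed by more than counting noise, with a chi-square per degree of freedom between 6.59 and 10.7, and so were treated as separate. Epithelial identity was clear from keratin 8, at 3474 to 4103 CPM in all libraries, and from EPCAM, at 25.4 to 33.6 CPM. The 6 aldo-keto reductase and aldehyde dehydrogenase genes that mark A549 summed to 22800 to 23390 CPM in untreated and 23070 to 23340 CPM in SPHINX31 libraries. That sum was lower with indisulam, at 18670 to 19520 CPM alone and 18350 to 18850 CPM in the combination, and its part in the results was not tested. With indisulam alone, ALDH3A1 and AKR1B10 had log2 fold changes of -0.67 and -0.39. The rest of the 6 lay between -0.08 (AKR1C2) and 0.14 (AKR1C3), so the markers did not fall as a whole. CDKN2A, a gene deleted in A549, was listed at 2.65 to 3.64 CPM rather than 0. All 5 fibroblast markers, 4 of 5 leukocyte markers and 3 of 4 endothelial markers stayed at or under 1 CPM in every library, the exceptions being CD14 (6.83 to 9.76 CPM) and PECAM1 (1.45 to 2.36 CPM).

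Integrins are pairs of one alpha and one beta subunit that bind matrix outside the cell and the actin cytoskeleton inside it. The beta 1 subunit pairs with many alpha subunits, among them alpha 2 for collagen, alpha 3 and alpha 6 for laminin, and alpha 5 for fibronectin, whereas beta 4 pairs with alpha 6 alone in hemidesmosomes. Laminins are heterotrimers of an alpha, a beta and a gamma chain and form the basement membrane under epithelia. In EMT, epithelial cells lose E-cadherin and gain N-cadherin, vimentin and transcription factors such as ZEB1 and Slug. A549 cells carry both keratins and vimentin and are a common model of this transition.

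For 4 genes whose RNA was lower with indisulam, 2 integrin subunits, a focal adhesion scaffold and a laminin chain, the sequence before their start is shown so that their promoters can be set side by side. They are not the 4 largest decreases. ITGA3 and ITGB4 fell further than LAMB1 with indisulam alone, and no window was found for either. RefSeq windows (GRCh38.p14) were found for 36 of the 45 genes, and each line gives the 250 bases before an annotated start, 5′ to 3′ on the strand of the gene. Capitals mark matches on either strand to the GC box (GGGCGG), the AP-1 site (TGANTCA) or the E-box bound by ZEB and Snail proteins (CAGGTG), and matches that touch or overlap run together. ITGA2 lies on the plus strand with its window at chr5:52989102-52989351, ITGB6 on the minus strand at chr2:160200273-160200522, ILK on the plus strand at chr11:6603524-6603773 and LAMB1 on the minus strand at chr7:108003162-108003411.
ITGA2: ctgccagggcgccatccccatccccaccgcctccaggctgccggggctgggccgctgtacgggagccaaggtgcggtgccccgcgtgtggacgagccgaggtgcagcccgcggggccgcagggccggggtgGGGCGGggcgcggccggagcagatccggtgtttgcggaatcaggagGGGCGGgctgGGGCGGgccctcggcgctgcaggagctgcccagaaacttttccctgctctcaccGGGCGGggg
ITGB6: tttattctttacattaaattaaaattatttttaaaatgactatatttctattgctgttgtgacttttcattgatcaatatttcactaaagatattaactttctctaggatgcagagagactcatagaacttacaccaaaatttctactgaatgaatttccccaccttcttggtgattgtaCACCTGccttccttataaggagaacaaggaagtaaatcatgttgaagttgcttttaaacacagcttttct
ILK: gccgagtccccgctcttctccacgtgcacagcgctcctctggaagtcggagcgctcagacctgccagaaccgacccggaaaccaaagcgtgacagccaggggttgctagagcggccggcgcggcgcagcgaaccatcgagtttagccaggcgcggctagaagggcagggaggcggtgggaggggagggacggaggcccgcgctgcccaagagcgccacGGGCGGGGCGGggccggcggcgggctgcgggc
LAMB1: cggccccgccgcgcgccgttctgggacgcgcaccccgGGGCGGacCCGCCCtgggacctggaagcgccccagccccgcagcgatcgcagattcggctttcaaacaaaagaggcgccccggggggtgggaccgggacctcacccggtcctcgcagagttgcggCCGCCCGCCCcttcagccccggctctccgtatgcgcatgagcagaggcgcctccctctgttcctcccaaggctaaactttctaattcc
ITGA2 and LAMB1 had 4 GC boxes each, ILK had 2, and ITGB6 had none but held 1 E-box. A GC box was in 39 of 55 windows of the genes studied (70.9%) and in 42.5% of all 34943 promoter windows. The E-box was in 9 of the 55 (16.4%, against 17.5% of all windows) and the AP-1 site in 4 (7.27%, against 6.59%). All promoter windows were taken whether or not their genes were expressed here, so these shares were not matched for level. A gene with several annotated starts counts once for each start. A match to these letters is no evidence of binding.

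Indisulam alone lowered most integrin subunits and laminin chains that responded, while the genes that define the mesenchymal state did not pass the test. Of the 43 tested genes, 22 differed between indisulam-treated and untreated cells at an adjusted p under 0.05 (quasi-likelihood test of edgeR, Benjamini-Hochberg adjusted over all tested genes), against 43.7% of all 18661 tested genes. The balance was uneven, with 19 genes lower and 3 higher, against 23.5% lower and 20.1% higher among all genes. Their median log2 fold change was -0.11, and that of all tested genes was -0.0041. The 2 groups of libraries did not overlap for 33 of the 43, against 73.2% of all tested genes. These shares were not matched for level. Requiring at least 10 counts in every library gave 7564 calls among 16149 genes. In bulk RNA, fewer cells with a transcript and less transcript per cell cannot be told apart, and gene counts do not separate isoforms.

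**Figure D1:**
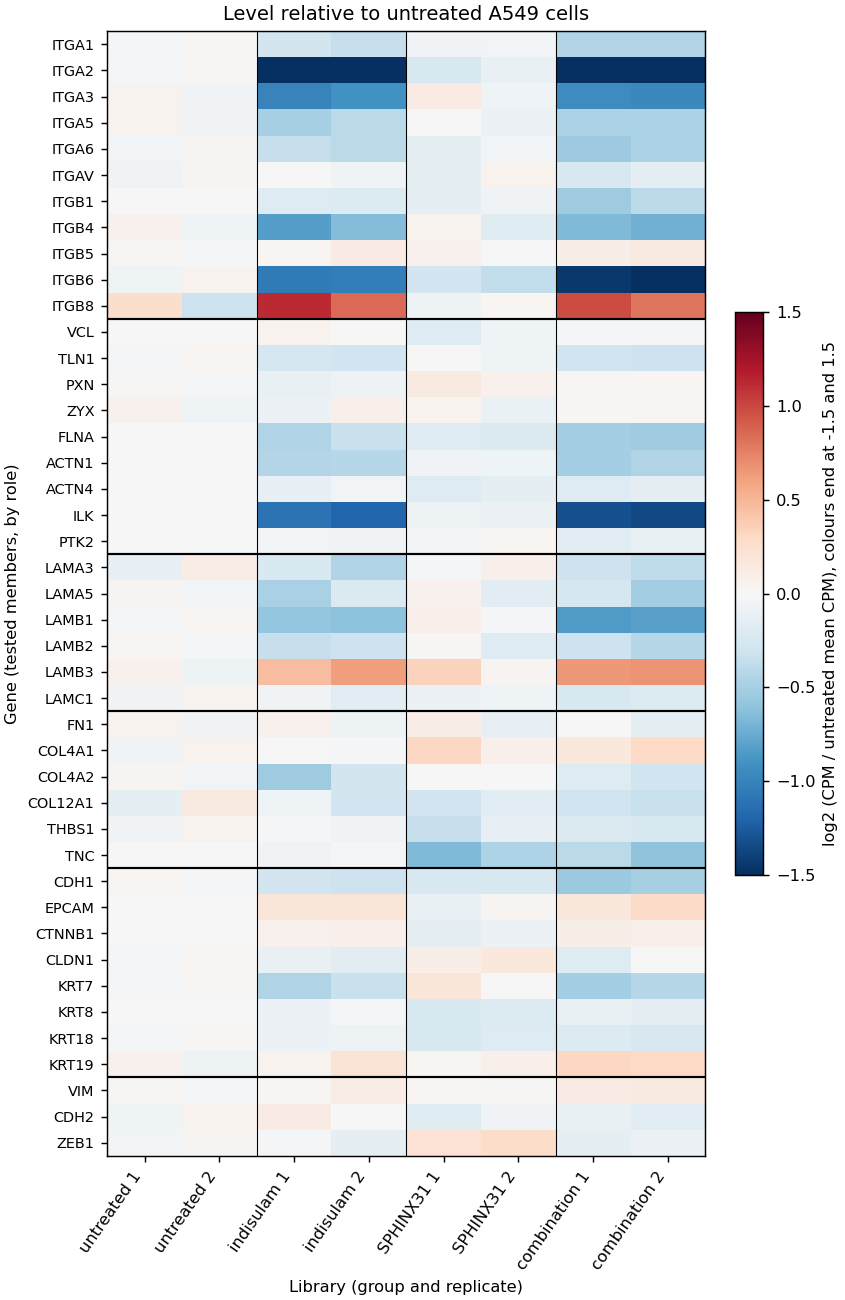
Level of each of the 43 tested genes in each of the 8 libraries, as log2 of CPM over the mean CPM of the untreated libraries, with genes grouped by role in the order integrins, focal adhesion proteins, laminins, other matrix, epithelial and mesenchymal genes. Blue is lower and red higher than untreated, colours end at -1.5 and 1.5, and the indisulam and combination columns share the deepest blue at ITGA2, ITGB6 and ILK.

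Among the 11 integrin subunits, 8 were lower and 1 was higher after indisulam, with a median log2 fold change of -0.38. ITGA2, the collagen-binding alpha 2 subunit (chr5:52989340-53094779), fell furthest of all 43 genes. It stood at 54.4 and 56.1 CPM in untreated libraries, 17.5 and 15.0 with indisulam, 46.8 and 51.2 with SPHINX31, and 15.5 and 15.5 in the combination. All 4 libraries with indisulam lay far below the 4 without it. The change with indisulam alone was 3.40-fold lower (log2 -1.76, SE 0.08, edgeR adjusted p = 4.07e-09).

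ITGB6, the beta subunit of the alpha v beta 6 receptor that activates latent TGF-beta (chr2:160099667-160200313), was at 12.3 and 13.3 CPM in untreated libraries and at 6.17 and 6.22 CPM with indisulam. SPHINX31 libraries held 10.5 and 9.90 CPM, and combination libraries 4.71 and 4.11 CPM. The 4 groups were fully separated, in the order untreated, SPHINX31, indisulam, combination. Indisulam alone lowered it 2.07-fold (log2 -1.05, SE 0.09, edgeR adjusted p = 1.27e-06). A lncRNA on the same strand (ENSG00000285155) overlaps 16.7% of its exon bases and changed by -1.35 on the log2 scale.

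ITGA3, the laminin-binding alpha 3 subunit (chr17:50055968-50090481), stood at 461 and 429 CPM untreated and at 222 and 238 CPM with indisulam. Its SPHINX31 libraries (484 and 427 CPM) overlapped the untreated ones, and its combination libraries (232 and 228 CPM) lay within the range of the indisulam ones. It was 1.94-fold lower with indisulam (log2 -0.95, SE 0.06, edgeR adjusted p = 1.03e-07). The levels of the 3 integrins described so far, and of 5 other genes, are drawn in the plot of levels by library.

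**Figure D2:**
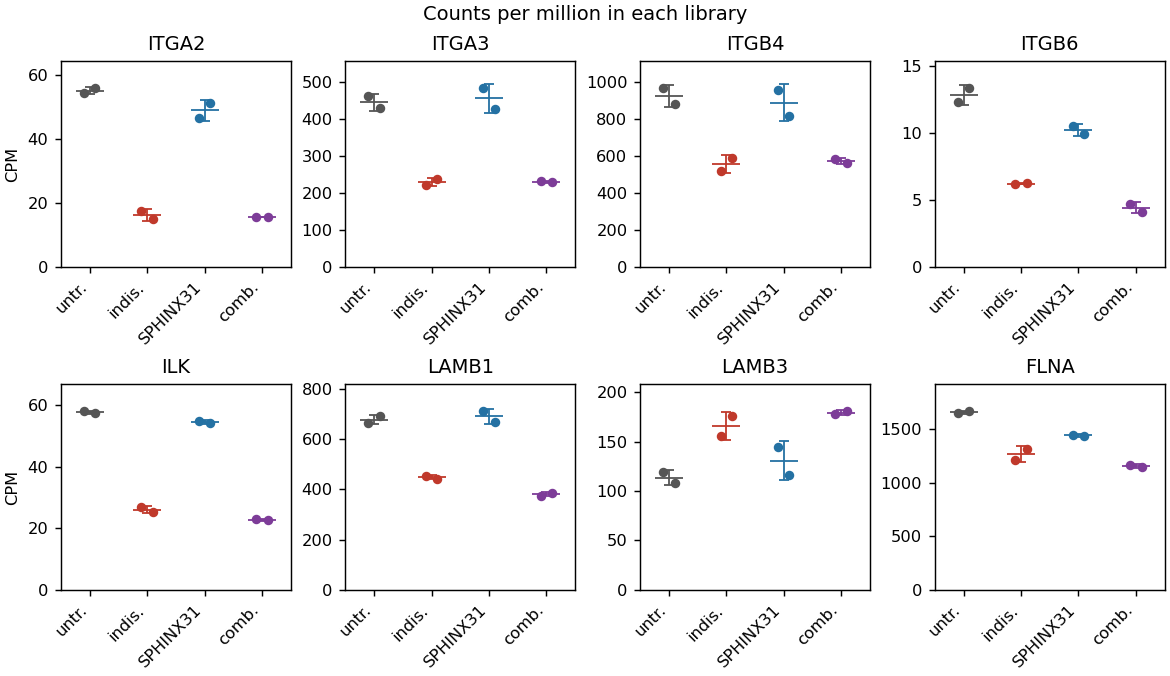
CPM on a linear axis from 0 for ITGA2, ITGA3, ITGB4, ITGB6, ILK, LAMB1, LAMB3 and FLNA, with 1 point per library and the mean and SD of the 2 libraries of each group (untr., untreated; indis., indisulam; comb., combination). In every panel but that of LAMB3, which is higher, both indisulam-containing groups lie below the untreated libraries.

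The hemidesmosome pair fell unequally. ITGB4 (chr17:75721328-75757818) was at 967 and 880.0 CPM untreated, 520.2 and 589.6 CPM with indisulam, 958 and 817 CPM with SPHINX31, and 582 and 562 CPM in the combination. ITGA6, its partner, was at 185 and 196 CPM untreated, 149.8 and 144 CPM with indisulam, 173 and 186 CPM with SPHINX31, and 131 and 137 CPM in the combination. Neither gene's indisulam libraries overlapped its untreated ones. The log2 fold change with indisulam was -0.73 for ITGB4 (SE 0.08, adjusted p = 5.65e-06) and -0.38 for ITGA6 (SE 0.05, adjusted p = 9.42e-05), whose difference was not tested.

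ITGB1, the shared beta 1 subunit, had the highest CPM of the integrins studied and moved less. Per kilobase of exon it stood at 105 CPM untreated, against 137 CPM for ITGB4. Those lengths, 14561 and 6761 bases, merge the exons of all annotated transcripts, so they do not rank the 2 genes by transcript number. ITGB1 was at 1520 and 1528 CPM untreated and at 1336 and 1322 CPM with indisulam, a log2 fold change of -0.20 (SE 0.05, edgeR adjusted p = 0.00819). That call was lost without untreated replicate 2 (adjusted p = 0.0522) or indisulam replicate 2 (adjusted p = 0.0537). The ratio of ITGA3 to ITGB1 CPM went from 0.303 and 0.281 untreated to 0.166 and 0.180 with indisulam.

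The fibronectin-binding ITGA5 fell by 0.45 and the collagen-binding ITGA1 by 0.31 on the log2 scale with indisulam, both past the threshold (edgeR adjusted p = 2.63e-05 and 0.000866). ITGAV, the alpha v subunit, and ITGB5, one of its partners, had log2 fold changes of -0.03 and 0.08 and did not pass. ITGB8, another partner of alpha v, went the other way, from 1.21 and 0.805 CPM untreated to 2.18 and 1.83 CPM with indisulam (log2 0.99, SE 0.20, adjusted p = 0.00129). It is the least abundant of the integrin genes studied, at a mean of 1.01 CPM in untreated cells.

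Of the 9 focal adhesion proteins, which connect integrins to actin, 4 were lower and none was higher, with a median log2 fold change of -0.09. ILK encodes integrin-linked kinase, a scaffold at the tails of beta integrins (chr11:6603708-6610874). Its libraries held 58.1 and 57.3 CPM untreated, 26.9 and 25.3 with indisulam, 54.9 and 54.1 with SPHINX31, and 23.0 and 22.6 in the combination. Every library with indisulam was below every library without it. The decrease with indisulam was 2.21-fold (log2 -1.14, SE 0.06, edgeR adjusted p = 8.36e-09). TAF10 lies on the opposite strand and shares 68.1% of the exon bases of ILK, and whether the counting used strand is not given in the sources used here. TAF10 itself averaged 172 counts per library, with a log2 fold change of -0.20 that did not pass (adjusted p = 0.216). Reads recorded as ambiguous between genes are in neither count. They made up 4.88% to 5.22% of reads in untreated and 5.87% to 6.03% in indisulam libraries. In SPHINX31 libraries the share was 4.82% to 5.94%, and in combination libraries 4.96% to 4.99%. How many of these reads fell on ILK and TAF10 is not known.

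FLNA, the actin crosslinker filamin A (chrX:154348524-154374634), was at 1654 and 1673 CPM untreated and at 1215 and 1320 CPM with indisulam. SPHINX31 libraries held 1451 and 1436 CPM and combination libraries 1172 and 1148 CPM, so that no 2 groups overlapped. Its log2 fold change with indisulam was -0.39 (SE 0.05, edgeR adjusted p = 2.52e-05). ACTN1, encoding alpha-actinin 1, fell by 0.44 and TLN1, encoding talin, which couples integrin tails to actin, by 0.28 on the log2 scale (adjusted p = 5.58e-06 and 0.000329). Vinculin (VCL), paxillin (PXN), zyxin (ZYX), alpha-actinin 4 (ACTN4) and focal adhesion kinase (PTK2) did not pass, with log2 fold changes from -0.09 to 0.02. An antisense RNA, PXN-AS1, covers 23.7% of the exon bases of PXN and had a log2 fold change of -0.78.

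The laminin chains split in direction. Of 6 chains, 4 were lower and 1 was higher with indisulam. LAMB1, the beta 1 chain (chr7:107923799-108003213), stood at 664 and 691 CPM untreated, 453 and 442 with indisulam, 712 and 669 with SPHINX31, and 374 and 386 in the combination. The combination libraries lay below the indisulam libraries, which lay below the other 4. With indisulam it was 1.51-fold lower (log2 -0.60, SE 0.05, edgeR adjusted p = 6.71e-07).

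LAMB3, the beta 3 chain of laminin-332 (chr1:209614870-209652425), was instead at 119 and 108 CPM untreated and at 156 and 176 CPM with indisulam, 144 and 117 CPM with SPHINX31 and 178 and 181 CPM in the combination. Indisulam alone raised it 1.46-fold (log2 0.55, SE 0.09, edgeR adjusted p = 0.000204). The ratio of LAMB1 to LAMB3 CPM was 5.59 and 6.40 in untreated, 2.91 and 2.52 in indisulam, 4.93 and 5.73 in SPHINX31, and 2.11 and 2.13 in combination libraries. LAMA3, the alpha chain that assembles with LAMB3 in laminin-332, did not follow it. It went from 57.3 and 67.5 CPM untreated to 53.3 and 45.6 CPM with indisulam (log2 -0.33, SE 0.08, adjusted p = 0.00557).

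LAMA5, the main alpha chain of laminins of mature epithelia, was at 566 and 535 CPM untreated and at 393 and 472 CPM with indisulam (log2 -0.35, SE 0.10, edgeR adjusted p = 0.00982). LAMB2 went from 197 and 187 CPM to 151 and 154 CPM (log2 -0.33, SE 0.07, adjusted p = 0.00141). LAMC1, the gamma 1 chain shared by most laminins, was at 338 and 365 CPM untreated and 338 and 313 CPM with indisulam and did not pass (log2 -0.11, SE 0.05, adjusted p = 0.107). The call of LAMA3 was lost without replicate 2 of the untreated (adjusted p = 0.0928, log2 -0.21) or indisulam libraries (0.0572, -0.22). That of LAMA5 was lost without replicate 1 of either group (adjusted p = 0.0620 and 0.0827), which moved its log2 fold change to -0.31 and -0.22, and with DESeq2.

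Of the other matrix genes, 1 of 6 tested was lower with indisulam, and their median log2 fold change was -0.04. FN1, the fibronectin gene, stood at 343 and 319 CPM untreated and at 346 and 313 CPM with indisulam, and the 2 groups overlapped (log2 -0.01, 95% interval -0.17 to 0.15). The collagen IV genes COL4A1 and COL4A2 are transcribed in opposite directions from RefSeq starts 127 bases apart. COL4A1 was at 1.60 and 1.73 CPM untreated and 1.67 and 1.63 CPM with indisulam (log2 -0.01), and COL4A2 at 4.87 and 4.61 CPM and 3.28 and 3.93 CPM (log2 -0.40, SE 0.12, edgeR adjusted p = 0.0134). The COL4A2 call was lost without replicate 1 of the untreated (adjusted p = 0.0877) or of the indisulam libraries (0.153, where log2 was -0.27), and with DESeq2. COL12A1, THBS1 and TNC had log2 fold changes of -0.17, -0.04 and -0.04 and did not pass. COL12A1 passed without replicate 1 of the untreated libraries (log2 -0.30, adjusted p = 0.0238) or of the indisulam libraries (log2 -0.28, adjusted p = 0.0344), and was at -0.02 without untreated replicate 2.

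**Figure D3:**
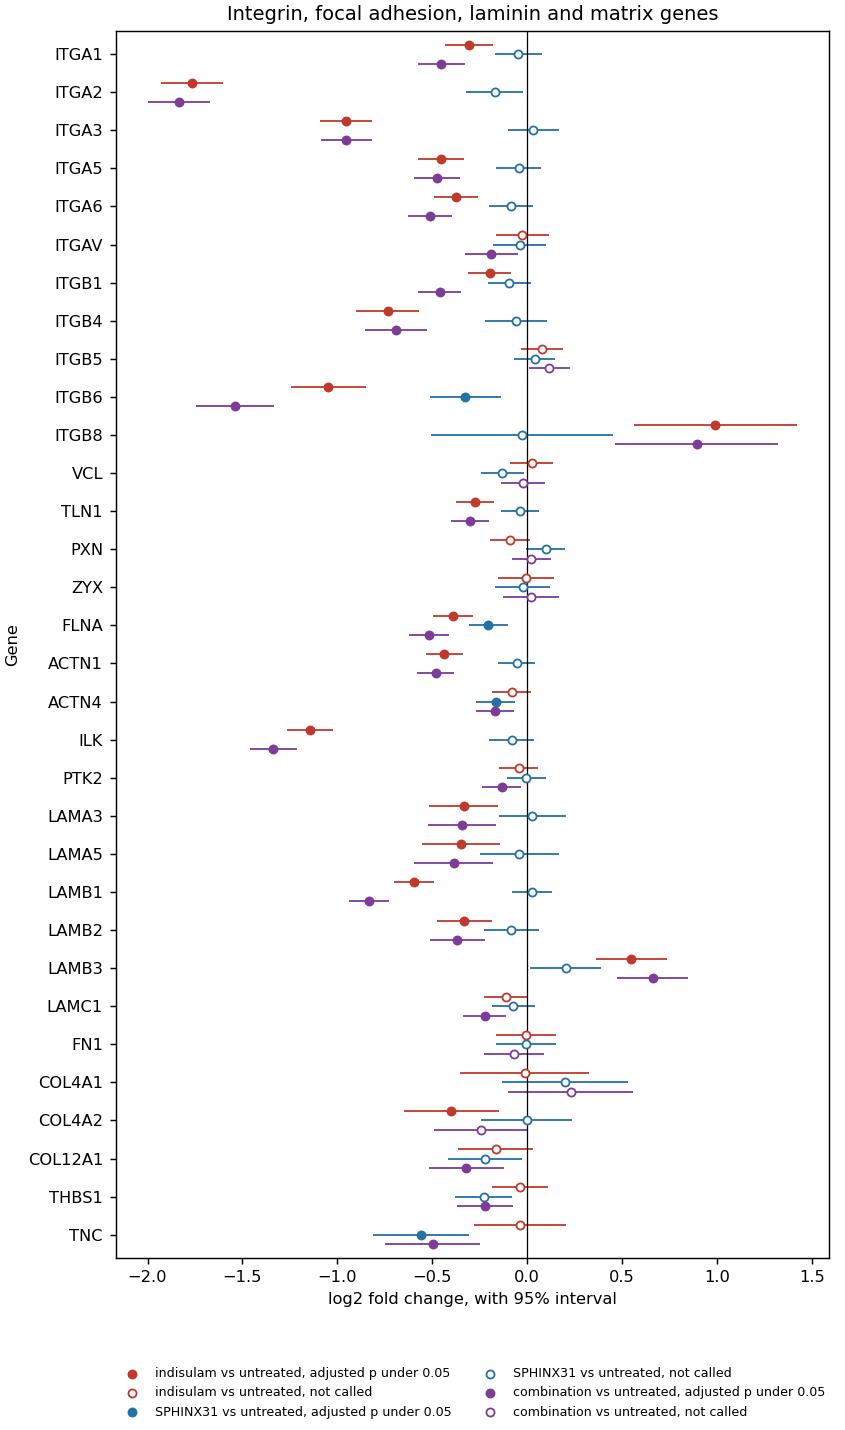
log2 fold change against untreated cells of each integrin, focal adhesion, laminin and other matrix gene for indisulam (red), SPHINX31 (blue) and the combination (purple), with 95% intervals from edgeR and filled points for an adjusted p under 0.05. Red and purple points lie together at ITGA2, ITGA3 and ITGB4, while TNC is lower in blue and purple only. At ILK red lies at -1.14 and purple at -1.34.

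Epithelial genes moved in both directions with indisulam, with 2 lower and 1 higher of 8. CDH1, encoding E-cadherin (chr16:68737292-68835537), was at 106 and 102 CPM untreated, 85.1 and 83.8 with indisulam, 88.5 and 88.3 with SPHINX31, and 70.5 and 73.6 in the combination. Each single agent gave levels below both untreated libraries, and the combination gave the lowest. The log2 fold change with indisulam was -0.30 (SE 0.05, edgeR adjusted p = 0.000329). KRT7, keratin 7, was also lower, from 1637 and 1669 CPM to 1207 and 1314 CPM (log2 -0.39, SE 0.06, adjusted p = 0.000183).

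EPCAM, an epithelial adhesion molecule, was at 27.6 and 27.5 CPM untreated and at 31.3 and 31.2 CPM with indisulam (log2 0.18, SE 0.07, edgeR adjusted p = 0.0431). This call was lost when either untreated or either indisulam library was left out (adjusted p from 0.0860 to 0.150), and with DESeq2. Beta-catenin (CTNNB1), claudin 1 (CLDN1) and keratins 8, 18 and 19 did not pass, with log2 fold changes from -0.14 to 0.13, although KRT19 passed without indisulam replicate 1 (log2 0.21, adjusted p = 0.0349). KRT8 and KRT18, partner keratins of simple epithelia, held their CPM ratio between 1.01 and 1.10 in all 8 libraries. They overlap each other by 525 bases on opposite strands and have pseudogene copies, so their counts are uncertain to that extent.

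None of the 3 tested mesenchymal genes passed with indisulam. CDH2, encoding N-cadherin, was at 19.5 and 21.2 CPM untreated and 22.2 and 20.4 CPM with indisulam (log2 0.07, 95% interval -0.09 to 0.23). VIM, the vimentin gene, was at 891 and 864 CPM untreated and 893 and 951 CPM with indisulam (log2 0.07, 95% interval -0.03 to 0.17). ZEB1, a repressor of E-cadherin, was at 31.8 and 33.6 CPM and 32.0 and 29.8 CPM (log2 -0.08, 95% interval -0.22 to 0.05). No bound of these intervals reached past 0.23 on the log2 scale in either direction. The CPM ratio of CDH1 to CDH2 was 5.45 and 4.81 in untreated and 3.84 and 4.12 in indisulam libraries.

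**Figure D4:**
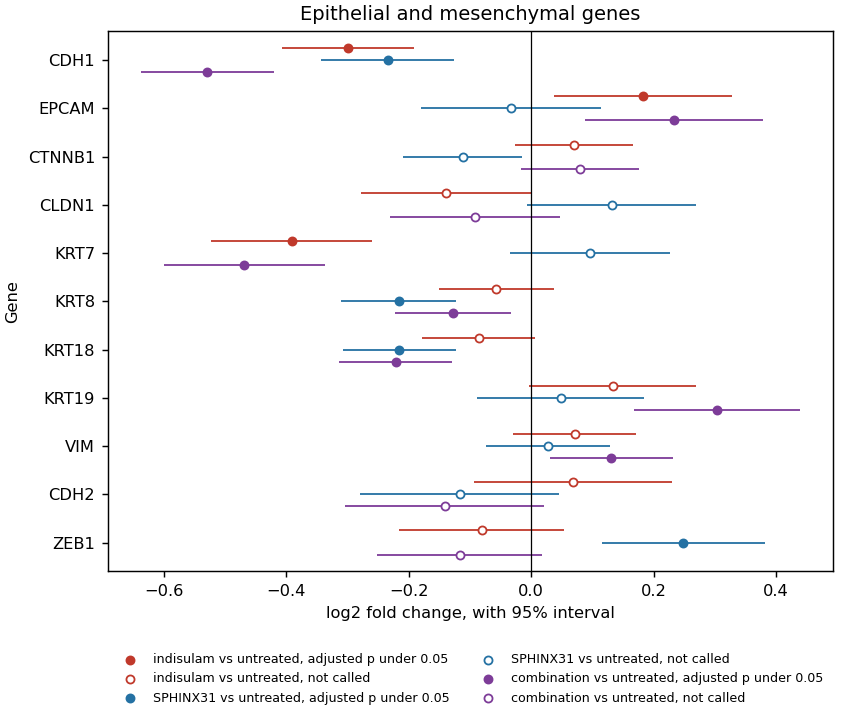
log2 fold change against untreated cells of the 8 epithelial and 3 tested mesenchymal genes for indisulam (red), SPHINX31 (blue) and the combination (purple), with 95% intervals from edgeR and filled points for an adjusted p under 0.05. CDH1 is lower in all 3 comparisons, KRT8 and KRT18 are lower with SPHINX31 and in the combination, and ZEB1 is higher with SPHINX31 only.

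SPHINX31 alone changed fewer of these genes, with keratins 8 and 18, E-cadherin and tenascin lower and ZEB1 higher. It altered 8 of the 43 genes (7 lower, 1 higher) at an adjusted p under 0.05 by edgeR's quasi-likelihood test, against 8.61% of all tested genes (3.67% lower, 4.94% higher). The median log2 fold change was -0.05 for the 43 genes and -0.0064 for all. Libraries of the 2 groups did not overlap for 21 of the 43, against 54.1% of all tested genes. No laminin chain passed and only 1 integrin did, ITGB6 (log2 -0.33, SE 0.09, adjusted p = 0.0338). For LAMB3 the log2 fold change was 0.20 (adjusted p = 0.172); it was 0.35 and past the threshold without SPHINX31 replicate 2 (adjusted p = 0.0177) and 0.04 without SPHINX31 replicate 1. THBS1 and VCL also passed without SPHINX31 replicate 2 (log2 -0.35 and -0.20, adjusted p = 0.00864 and 0.0414).

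TNC, encoding tenascin-C, a matrix glycoprotein of remodelling tissue, showed the largest change with SPHINX31 among the 43 genes. It was at 4.85 and 4.80 CPM in untreated and 4.66 and 4.75 CPM in indisulam libraries, but at 3.05 and 3.49 CPM with SPHINX31 and 3.66 and 3.18 CPM in the combination. The 4 libraries with SPHINX31 were below the 4 without it. SPHINX31 alone lowered it 1.48-fold (log2 -0.56, SE 0.12, edgeR adjusted p = 0.00991).

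KRT8 stood at 4103 and 4067 CPM untreated and 3474 and 3557 CPM with SPHINX31 (log2 -0.22, SE 0.04, edgeR adjusted p = 0.00836). KRT18 went from 3934 and 4028 CPM to 3378 and 3480 CPM (log2 -0.22, SE 0.04, adjusted p = 0.00754). Both keratins were lower in each SPHINX31 library than in each untreated one. CDH1 fell by 0.23 (adjusted p = 0.0112), FLNA by 0.20 (0.0193) and ACTN4 by 0.17 (0.0432) on the log2 scale. ZEB1 rose to 38.0 and 39.7 CPM (log2 0.25, SE 0.06, adjusted p = 0.0242), above its level in all 6 other libraries. Leaving out untreated replicate 1 or 2 left 0 of the 8 calls and leaving out SPHINX31 replicate 1 left 3, with adjusted p up to 0.256 and no change of sign, while correction for GC content gave 13. Scaling by library totals alone gave 6 calls here, 1 of them higher, and moved the calls among all genes from 921 higher and 685 lower to 1341 and 515.

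Adding both agents lowered most of the adhesion and laminin genes, with the largest decreases at integrin alpha 2, integrin beta 6 and ILK. Against untreated cells, the combination changed 32 of the 43 genes, 27 lower and 5 higher (edgeR, adjusted p under 0.05), beside 50% of all tested genes, 26.3% lower and 23.8% higher. The median log2 fold change was -0.23, and that of all tested genes was 0.0010. All 6 laminin chains passed (5 lower, LAMB3 higher), as did 10 of 11 integrins (9 lower, ITGB8 higher) and 6 of 9 focal adhesion genes, all lower. Libraries of the 2 groups did not overlap for 39 of the 43, against 75.8% of all tested genes. Level was not matched here either, and requiring at least 10 counts in every library gave 8626 calls among 16149 genes.

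ITGA2 was 3.56-fold, ITGB6 2.91-fold and ILK 2.53-fold lower in the combination than in untreated cells (edgeR adjusted p = 1.09e-09, 3.30e-08 and 1.44e-09). LAMB1 was 1.78-fold lower and CDH1 1.44-fold lower (adjusted p = 2.25e-08 and 1.70e-06). FLNA fell by 0.52 and ITGA6 by 0.51 on the log2 scale (adjusted p = 1.45e-06 and 4.40e-06). LAMB3 was 1.58-fold and KRT19, keratin 19, 1.23-fold higher (adjusted p = 2.98e-05 and 0.00127). Keratins KRT7, KRT18 and KRT8 were lower, with log2 fold changes of -0.47, -0.22 and -0.13 (edgeR adjusted p = 2.85e-05, 0.000749 and 0.0266). VIM reached 956 and 966 CPM (log2 0.13, SE 0.05, adjusted p = 0.0319), while CDH2, at 18.8 and 18.1 CPM, and ZEB1, at 29.7 and 30.7 CPM, did not pass.

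The CDH1 to CDH2 ratio was 3.75 and 4.08 in the combination, as in the indisulam libraries and below the untreated and SPHINX31 ones. COL12A1 and THBS1, encoding a fibril-associated collagen and thrombospondin 1, were lower by 0.32 and 0.22 on the log2 scale (edgeR adjusted p = 0.0101 and 0.0154). Without untreated replicate 2 the value for COL12A1 was -0.17 (adjusted p = 0.175). Leaving out 1 library ended 11 of the 32 calls with adjusted p from 0.0513 to 0.222, namely those of ITGAV, ACTN4, PTK2, LAMA3, LAMA5, LAMC1, COL12A1, THBS1, EPCAM, KRT8 and VIM. Each of them lost its call without an untreated or a combination library, and PTK2 also without either indisulam library.

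With SPHINX31 added to indisulam, 5 genes were lower than with indisulam alone and none was higher. Of the 43 genes, ITGB1, ITGB6, LAMB1, TNC and CDH1 were lower in the combination than with indisulam alone (edgeR, adjusted p under 0.05), against 7.50% of all tested genes called, 4.32% lower and 3.17% higher. The median log2 fold change was -0.06 for the 43 genes and 0.0029 for all. Libraries did not overlap for 27 of the 43, against 50.8% of all tested genes.

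ITGB6 was 1.41-fold lower with both agents than with indisulam (log2 -0.49, SE 0.10, edgeR adjusted p = 0.0109), and TNC 1.38-fold lower (log2 -0.46, SE 0.12, adjusted p = 0.0308). ITGB1 was at 1057 and 1157 CPM in the combination, below its level in the other 6 libraries (log2 -0.26, SE 0.05, adjusted p = 0.0085). LAMB1 and CDH1 were lower by 0.24 and 0.23 on the log2 scale (adjusted p = 0.0103 and 0.0151). By contrast ITGA3 and ITGA2, both far down with indisulam, had log2 fold changes of 0.00 (95% interval -0.13 to 0.14) and -0.07 (95% interval -0.24 to 0.10). Without indisulam replicate 1, combination replicate 1 or combination replicate 2 1 call was left, with adjusted p up to 0.201 for the others, and with correction for GC content there were 9. Scaling by library totals alone gave 6 calls, 5 lower and 1 higher, and moved those among all genes from 592 higher and 807 lower to 942 and 498.

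The effect of indisulam could be read a second time in cells that also had SPHINX31, between groups not contrasted in the first comparison. The spread for both comparisons came from the same fit to all 8 libraries. Between combination and SPHINX31 libraries, 27 of the 43 genes differed, 22 lower and 5 higher (edgeR, adjusted p under 0.05), against 49.9% of all tested genes, 26.5% lower and 23.4% higher. The 21 genes called in both comparisons had the same sign in each, 18 lower and 3 higher. They made up 95.5% of those called with indisulam alone and 77.8% of those called in the presence of SPHINX31. Among all tested genes, the shares called in both were 83.2% and 72.8%.

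ITGA2 was 3.16-fold, ILK 2.39-fold, ITGB6 2.32-fold and ITGA3 1.98-fold lower with indisulam in the presence of SPHINX31 (edgeR adjusted p = 2.67e-09, 2.62e-09, 4.00e-07 and 5.01e-08). COL4A2 was the exception among the genes called with indisulam alone (log2 -0.24, SE 0.12, adjusted p = 0.0987). ZEB1 was lower here (log2 -0.37, SE 0.06, adjusted p = 0.000299), CTNNB1 was higher (log2 0.19, adjusted p = 0.00302) and KRT7 fell by 0.56. Leaving out 1 library ended 6 of the 27 calls, those of PTK2, LAMA5, LAMB2, LAMC1, CLDN1 and EPCAM, with adjusted p from 0.0565 to 0.230.

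**Figure D5:**
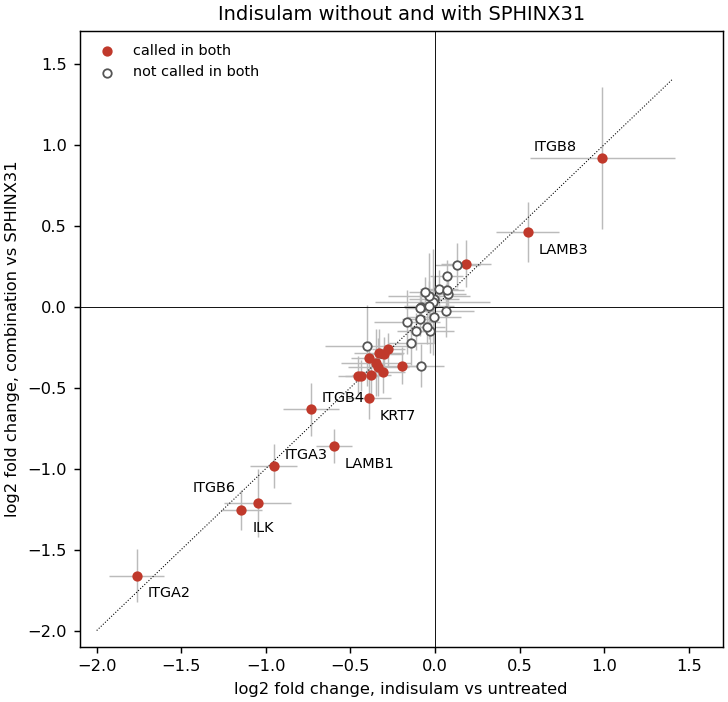
log2 fold change of each of the 43 tested genes for indisulam against untreated cells (x axis) and for the combination against SPHINX31 (y axis), with 95% intervals, a dotted line of equality and filled points for the 21 genes called in both. ITGA2, ILK, ITGB6 and ITGA3 lie at the lower left, ITGB8 and LAMB3 at the upper right, and LAMB1 and KRT7 lie below the line.

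The corresponding pair for SPHINX31, against untreated cells and on top of indisulam, had 3 genes lower in both, ITGB6, TNC and CDH1. These were 37.5% of the first set of calls and 60.0% of the second, beside 39.9% and 45.7% among all tested genes. No gene of the 43 departed from the sum of the single effects by the interaction term (edgeR, adjusted p under 0.05), and none of the 18661 tested genes did. At an unadjusted p under 0.05 the interaction counted 4 of the 43 and 1584 of all, and DESeq2 called 0 of the 43 and 32 of all. Those 4 were LAMB1 (-0.26, unadjusted p = 0.00206), ZEB1 (-0.28, 0.00660), KRT8 (0.15, 0.0340) and ITGB1 (-0.17, 0.0411) on the log2 scale, named after their values were seen.

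For ZEB1 this meant that SPHINX31 changed it by 0.25 on the log2 scale without indisulam and by -0.04 with it, a difference with an adjusted p of 0.429. For CDH1 the interaction was 0.00 (95% interval -0.15 to 0.16), with log2 changes of -0.30 and -0.23 for the single agents and -0.53 for both.

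Further genes of the same pathways, taken from lists drawn up with the members, were counted with indisulam alone. Of 12 other integrin subunits tested, 2 were lower and 1 was higher (edgeR, adjusted p under 0.05), and of 37 other focal adhesion genes 11 were lower and 4 higher. FERMT1, encoding kindlin-1, which activates beta integrins together with talin, was at 94.3 and 96.8 CPM untreated and 52.2 and 52.7 CPM with indisulam (log2 -0.87, adjusted p = 4.97e-08). It went down again to 36.0 and 37.9 CPM in the combination, a log2 fold change of -0.51 from indisulam alone (adjusted p = 0.000178). TES, encoding testin, fell by 0.63, whereas TRIP6 rose by 0.29, CAV1, the caveolin 1 gene, by 0.22 and LIMD1 by 0.15 on the log2 scale.

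Of 29 other basement membrane and collagen genes tested, 10 were lower and 2 higher with indisulam. COL4A4, a collagen IV chain of specialised basement membranes, had a log2 fold change of -0.84, HSPG2, encoding perlecan, of -0.79 and COL4A6 of -0.70 (edgeR adjusted p = 1.52e-06, 3.89e-06 and 4.05e-05). COL27A1 and NID2, encoding nidogen 2, were higher by 0.39 and 0.26. Among 30 other junction genes, 6 were lower and 4 higher. The tight junction genes TJP3 and CGN fell by 1.05 and 0.68 and P-cadherin (CDH3) by 0.84, while occludin (OCLN) rose by 0.30 and the desmosomal genes DSG2 and DSC2 by 0.30 and 0.21.

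Of 18 EMT regulators, 4 were lower and 3 higher with indisulam. ESRP1, a splicing regulator of epithelial cells, fell by 0.88, TGFB1 by 0.36 and the receptor gene TGFBR2 by 0.17 on the log2 scale (edgeR adjusted p = 1.49e-06, 0.000872 and 0.0160). TGFB2 rose by 0.45, SMAD4 by 0.33 and SMAD3 by 0.18 (adjusted p = 0.000809, 0.000479 and 0.00748). The shares called were 25.0% of the other integrins, 40.5% of the other focal adhesion genes and 41.4% of the basement membrane genes. They were 33.3% of the junction genes and 38.9% of the EMT regulators. These shares were under the 43.7% of all tested genes, unlike those of matrix enzymes (53.6%) and other keratins (50%) described below. By direction, more were lower among the other focal adhesion genes (29.7%) and basement membrane genes (34.5%) than among all tested genes (23.5%). Higher calls made up 10.8% and 6.9% of those lists, beside 20.1% of all tested genes. The share lower was under 23.5% for the other integrins (16.7%), the junction genes and the EMT regulators (22.2%).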

How the data were processed

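Polyadenylated RNA of A549 cells was sequenced in 8 stranded libraries, 2 technical replicates in each of 4 groups. The authors deposited raw read counts per Ensembl gene, with the reads left unassigned, and the submitters' processing notes name HISAT2 2.2.1, HTSeq and GRCh38. The annotation and the strand setting of the counting are not given in the sources used here. Reads outside genes were left out of library sizes, and 83.0% to 86.0% of recorded reads were on genes. Reads without a feature made up 3.94% to 4.34% of reads in untreated, 4.49% to 5.48% in indisulam, 3.67% to 3.93% in SPHINX31 and 4.87% to 5.88% in combination libraries.

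Genes with few counts were removed with filterByExpr of edgeR 4.0.16 (R 4.3.3), which left 18661, and library sizes were scaled by TMM (factors 0.979 to 1.02). CPM values use these scaled sizes. Comparisons used the quasi-likelihood test of edgeR, fitted to the 8 libraries together without a replicate block (4 residual degrees of freedom), with Benjamini-Hochberg adjustment over all tested genes and a threshold of 0.05. Symbols and exon lengths came from GENCODE 44. The test was checked on simulated counts. Alternatives were other scalings, filters, DESeq2 1.42.0, a GC correction, a replicate block and leaving out each library.

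The members and the gene lists were chosen with earlier results of these data known. Values in every library were given for members with an adjusted p under 0.05, a log2 fold change of at least 0.5 in size against untreated cells and a mean log2 CPM of 3 or more, and for their partners in complexes and genes of the epithelial and mesenchymal states. Of the other lists, up to 3 genes per direction with the largest change with indisulam were named under the same limit on level, except 1 that is not reported here. At these depths 3 counts, the limit that a count of 0 allows, came to at most 0.058 CPM.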

Additional observations from a re-analysis of the deposited data

How the results depend on the processing

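No member that passed the threshold changed sign under any alternative. Of the calls, 17 of 22 with indisulam, 0 of 8 with SPHINX31, 21 of 32 with the combination, 0 of 5 for the combination against indisulam and 21 of 27 for the combination against SPHINX31 held under every alternative. Leaving out each library in turn gave 19 to 22, 0 to 8, 23 to 33, 1 to 5 and 23 to 26 calls in these comparisons and 0 for the interaction. Correction for GC content gave 13 calls with SPHINX31 and 9 for the combination against indisulam, and the cause was not tested. Libraries with the same replicate number deviated together in some pairs of groups and apart in others, across 12004 genes. The correlation was 0.38 for untreated and SPHINX31, -0.46 for untreated and indisulam, and -0.42 for indisulam and SPHINX31. It lay between -0.0056 and 0.13 for pairs with the combination. The methods name no pairing, so the main fit did not take the numbers as pairs. Whether replicates shared a factor was not tested. With the replicate block, calls numbered 22, 6, 32, 5, 27 and 0. With the indisulam numbers exchanged in the block, an alternative chosen after seeing the data, they numbered 24, 12, 33, 10, 30 and 0. Among all tested genes, calls moved by over 1.5 times with correction for GC content (2719 for SPHINX31 against untreated and 2271 for the combination against indisulam), with the exchanged block (2630 and 2252), without either untreated library or SPHINX31 replicate 1 (482, 539 and 697 for SPHINX31) and without indisulam replicate 1 or either combination library (696, 609 and 440 for the combination against indisulam). Scaling by library totals alone moved the median log2 fold change of all tested genes by at most 0.0533 and turned the balance of their calls for the combination against untreated cells to 5331 higher and 4304 lower. The authors describe the replicates as technical, so the spread between independent treatments was not measured. Whether libraries of a group came from separate cultures is not stated in the sources used here.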

Other observations

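Enzymes that process matrix and their inhibitors, which belong to no comparison above, moved in both directions with indisulam, with 9 of 28 tested genes lower and 6 higher (edgeR, adjusted p under 0.05). The share called was 53.6%, beside 43.7% of all tested genes. ADAM9, a membrane metalloprotease, had a log2 fold change of -0.44, and PLOD1 and P4HB, which modify collagen in the endoplasmic reticulum, of -0.22 each. MMP2, encoding gelatinase A, rose by 0.47, its inhibitor TIMP2 by 0.25 and PLOD2 by 0.18. In the combination PLOD2 had a log2 fold change of -0.0005 from untreated cells (adjusted p = 0.995).

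Of 8 other keratins tested, 1 was lower and 3 were higher with indisulam, a share called of 50% beside 43.7% of all tested genes. KRT80 fell by 0.57 on the log2 scale. KRT4 rose by 0.32 with indisulam alone (adjusted p = 0.0133) but was lower by 0.47 in the combination than with indisulam (edgeR adjusted p = 0.00784), and did not differ past the threshold between the combination and untreated cells (log2 -0.15, adjusted p = 0.185).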
